A study of Rattus norvegicus with 12 samples.

Results

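The entry of glucose and lactate into the left ventricle was described through 6 genes on 12 probe sets, 2 per gene, out of 8740 probe sets measured on each array. They were taken as every probe set whose annotation gives a single symbol equal to Slc2a1, Slc2a4, Hk1, Hk2, Slc16a1, Ldha or Ldhb. For Ldha the annotated probe set also carries Ldhal1, so no value is given for it and 6 of the 7 genes were measured. The genes were chosen by their differences between exercised and sedentary arrays in an earlier look at these data, among them the higher intensity of Slc16a1, as well as by their role. Member differences are therefore given as a description, with their standard error (SE) and without a p-value of their own. Where members past a p threshold are counted or named, nothing is read from it.

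RNA came from the rat heart left ventricle, from 6 samples after 7 weeks of treadmill running (exercised 1, 4, 5, 7, 8 and 9) and 6 samples of sedentary animals (sedentary 13, 16, 17, 21, 23 and 24), in a study of heart hypertrophy induced by exercise. For strain, sex, age, running schedule and the time from the last run to tissue collection, the labels say nothing. Each sample was hybridised to 1 array, and the labels do not state that every number is a separate animal, so the spread between samples may be partly technical. Array medians lay between 840 and 875 intensity units, and the number of arrays limits the precision. Of 8 cardiomyocyte markers, all tested, Tnnt2 averaged 47179 ± 915 in exercised and 46753 ± 1094 in sedentary samples, and Ryr2, at 739 in exercised and 713 in sedentary samples, lay below the array medians.

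The heart takes up glucose through facilitative carriers of the cell membrane. Slc2a1 encodes GLUT1, the carrier of basal uptake, and Slc2a4 encodes GLUT4, which is moved from internal vesicles to the membrane by insulin and by contraction. Hexokinases trap glucose in the cell as glucose 6-phosphate, Hk1 being the broadly expressed form and Hk2 the insulin-responsive form of muscle. Lactate crosses the membrane with a proton through MCT1, encoded by Slc16a1, and lactate dehydrogenase interconverts lactate and pyruvate, with Ldhb coding for the H subunit that predominates in heart muscle and Ldha for the M subunit. The working heart oxidises lactate together with fatty acids and glucose.

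The glucose carriers were slightly lower by sign on all their probe sets. Slc2a4 had a lowest, median and highest intensity of 3787, 4529 and 6015 on exercised arrays, against 4244, 5118 and 6132 on sedentary arrays (probe set D28561_s_at). The exercised values ran through the sedentary range, with 2 exercised arrays below every sedentary one and none above. On the log2(intensity + 363) scale its difference, exercised minus sedentary, was -0.12 ± 0.11 (SE, n = 6 per group). On the dimmer probe set rc_AA799760_s_at Slc2a4 had 1411, 1460 and 1687 on exercised arrays, against 1499, 1646 and 1844 on sedentary arrays. There 4 of 6 exercised arrays lay below every sedentary one, and the difference was -0.11 ± 0.057. Both probe sets of this carrier thus gave a difference of similar size, with the larger SE on the brighter one.

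Slc2a1 was nearly level. Its brighter probe set M13979_at averaged 1105 ± 49.6 on exercised and 1114 ± 44.0 on sedentary arrays (SD, n = 6 each), a log2 difference of -0.01 ± 0.036. The dimmer probe set S68135_s_at averaged 524 ± 58.5 on exercised and 568 ± 96.5 on sedentary arrays, with a difference of -0.07 ± 0.065. The groups overlapped on both. The spread within groups set these carriers apart: the SD around the group means was 0.046 log2 for Slc2a1 on M13979_at, lower than for all but 4.85% of the tested probe sets, and 0.22 for Slc2a4 on D28561_s_at, at the 95.1th percentile, where the median of all tested probe sets was 0.099.

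The probe sets of each hexokinase differed in sign. For Hk1, rc_AI012593_at had a lowest, median and highest intensity of 3440, 3989 and 4690 on exercised arrays, against 2634, 3278 and 3554 on sedentary arrays. On it 4 of 6 exercised arrays stood above every sedentary one, and the means of 3986 ± 479 in exercised and 3207 ± 332 in sedentary samples gave a ratio of 1.24 and a log2 difference of 0.28 ± 0.081. On the other Hk1 probe set, U27319exon_at, the exercised arrays had 3499, 3918 and 4819, against 3393, 4079 and 4809 on sedentary arrays, a difference of -0.04 ± 0.083 over nearly the same range. Hence the higher Hk1 value was seen on 1 of its 2 probe sets. Which transcripts of Hk1 each probe set detects was not analysed here.

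The Hk2 probe sets differed in spread, with an SD around the group means of 0.059 log2 on M68971_at and 0.16 on D26393exon_s_at. On M68971_at exercised arrays had 1703, 1825 and 1846, against 1754, 1890 and 2010 on sedentary arrays, so that none of the 6 exercised arrays exceeded the sedentary mean. The difference was small, at -0.06 ± 0.043. On D26393exon_s_at the exercised arrays had 1495, 1658 and 2026, against 1387, 1656 and 1929 on sedentary arrays, with a difference of 0.06 ± 0.085.

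Slc16a1, the lactate carrier MCT1, had the largest difference of the 6 genes. On D63834_at its lowest, median and highest intensity were 5516, 6800 and 7892 on exercised arrays, against 4005, 4556 and 5733 on sedentary arrays. The 4 exercised arrays 4, 5, 7 and 9 stood above every sedentary one, while exercised 1 and 8, at 5516 and 5684, lay just below sedentary 13 at 5733. The means were 6674 ± 989 in exercised and 4741 ± 603 in sedentary samples (SD, n = 6 each), a ratio of 1.41 and a log2 difference of 0.46 ± 0.098. On rc_AI145680_s_at it had 3892, 4437 and 5087 on exercised arrays, against 3236, 3900 and 4479 on sedentary arrays. All 6 exercised arrays were above the sedentary mean and 3 were above every sedentary array, and the difference of 0.18 ± 0.072 was smaller than on the brighter probe set.

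Ldhb, the heart subunit of lactate dehydrogenase, lay in the opposite direction. On U07181_at its lowest, median and highest intensity were 29918, 32843 and 36785 on exercised arrays, against 33171, 36823 and 39058 on sedentary arrays. Of the 6 exercised arrays 4 were below every sedentary one, and the means of 33097 ± 2243 in exercised and 36513 ± 2379 in sedentary samples gave a ratio of 0.906 and a log2 difference of -0.14 ± 0.054. U07181_g_at, made from the same accession, gave 33027 ± 3296 in exercised and 35909 ± 2448 in sedentary samples, a difference of -0.12 ± 0.066. None of the 6 exercised arrays exceeded the sedentary mean there.

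The 300 bases around the start of Slc16a1 and of Ldhb are shown because these lactate genes differed in opposite directions on both of their probe sets. Each runs 5′ to 3′ on its gene's strand, from 250 bases before to 50 after the RefSeq start (build GRCr8), at chr2:194812410-194812709 on the plus strand for Slc16a1 and at chr4:177177359-177177658 on the minus strand for Ldhb. Capitals mark every match, on either strand, of CACGTG (the E-box bound by MYC, MAX and USF), GGGCGG (the GC box), CCAAT and TATAAA. They also mark every match of ACGTG, a form of the core of the hypoxia response element.
Slc16a1: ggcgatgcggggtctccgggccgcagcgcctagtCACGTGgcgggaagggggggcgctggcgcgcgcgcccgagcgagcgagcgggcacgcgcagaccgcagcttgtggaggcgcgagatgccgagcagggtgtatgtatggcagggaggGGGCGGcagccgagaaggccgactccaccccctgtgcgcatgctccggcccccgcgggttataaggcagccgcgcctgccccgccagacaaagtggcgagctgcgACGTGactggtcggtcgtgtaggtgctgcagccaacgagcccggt
Ldhb: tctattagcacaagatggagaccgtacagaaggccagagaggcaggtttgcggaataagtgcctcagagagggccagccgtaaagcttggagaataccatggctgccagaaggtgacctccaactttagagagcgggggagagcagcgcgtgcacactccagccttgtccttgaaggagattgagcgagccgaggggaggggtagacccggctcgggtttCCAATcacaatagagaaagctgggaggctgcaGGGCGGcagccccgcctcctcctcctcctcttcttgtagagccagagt
The Slc16a1 window held 1 CACGTG, 216 bases before the start, and 3 matches of ACGTG, of which 2 lie inside that palindrome and 1 starts at base 6 after the start, besides 1 GC box. The Ldhb window held 1 CCAAT and 1 GC box and no match of CACGTG or ACGTG. Other forms of the hypoxia response core were not searched for, so these counts cannot show that a window lacks that core. Among the windows not shown, that of Slc2a1 held 1 ACGTG and no CACGTG. That of Ldha held 1 CACGTG and 3 matches of ACGTG, and that of Hk2 held none of the motifs. Of 33469 promoter windows of the same length, 6.42% held CACGTG, 19.3% ACGTG, 33.1% GGGCGG, 37.5% CCAAT and 14.2% TATAAA. GC content was 72.7% for Slc16a1 and 58.0% for Ldhb, where the median window had 51.7%. These matches describe letters and were not tested for binding or for a link to the differences.

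**Figure D1:**
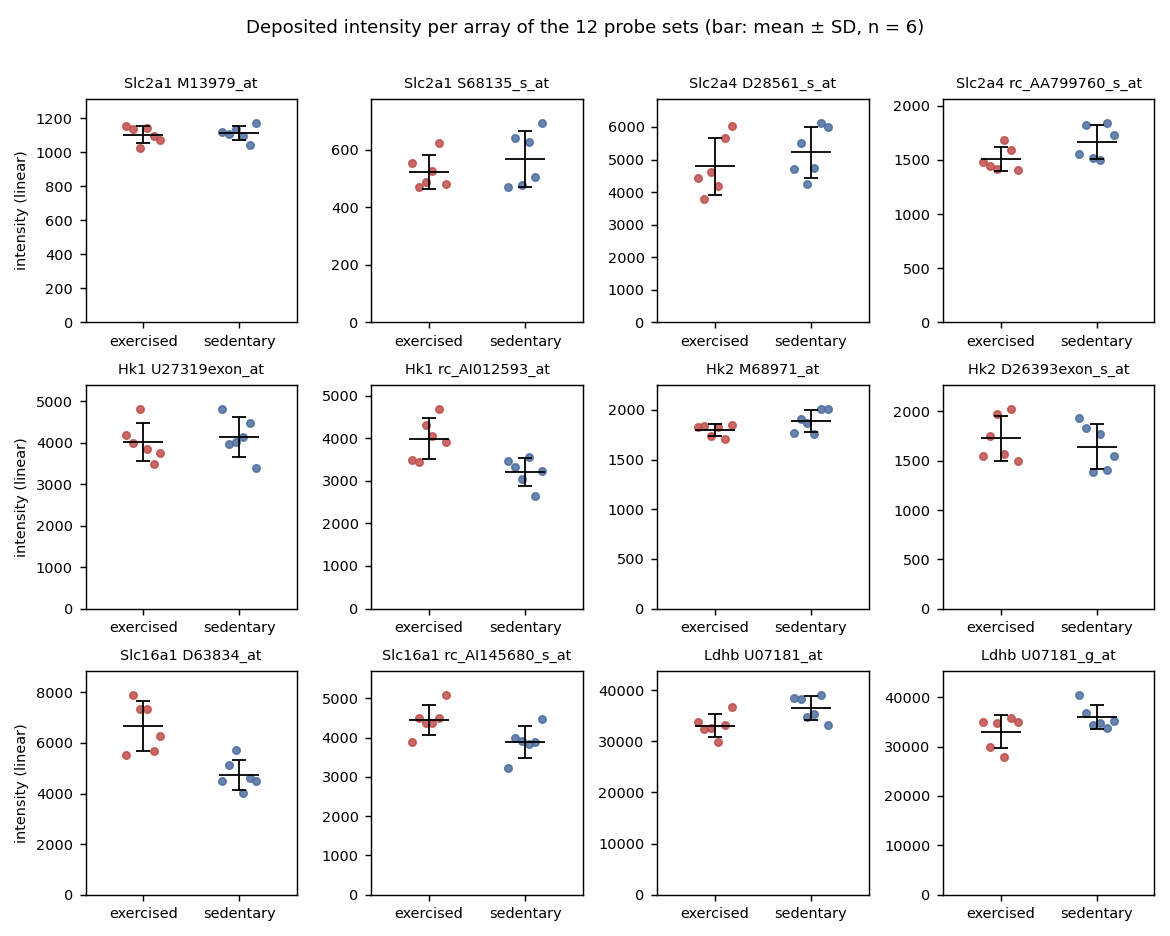
Deposited intensity (linear scale, from 0) of the 12 probe sets, 1 point per array, exercised left and sedentary right, with mean ± SD (n = 6 each). Both Slc16a1 probe sets and Hk1 rc_AI012593_at sit higher on exercised arrays and both Ldhb probe sets lower, with overlap between the groups in every panel.

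All 12 member probe sets passed the filter on dim signals and were tested in the fit across the array (limma with a mean-variance trend). None of the 12 passed an adjusted p of 0.05 over all 6555 tested probe sets, where 0.32% of all passed. At an unadjusted p under 0.05 there were 4, namely Slc16a1 on both probe sets and Hk1 rc_AI012593_at higher and Ldhb U07181_at lower. Of all tested probe sets 16.2% were past that limit, 9.26% higher and 6.91% lower. On none of the 12 were exercised and sedentary values without overlap, against 2.07% of all tested. Nothing is read from these counts, since the genes were chosen with this contrast known. By sign 4 probe sets were higher and 8 lower, where 51.4% of all tested were higher. Their median log2 difference was -0.05, beside 0.00 over all tested probe sets. The median size of the difference, regardless of sign, was 0.12 over the members and 0.061 over all tested. Of the 6 genes, 4 had both probe sets of one sign and 2, Hk1 and Hk2, did not.

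**Figure D2:**
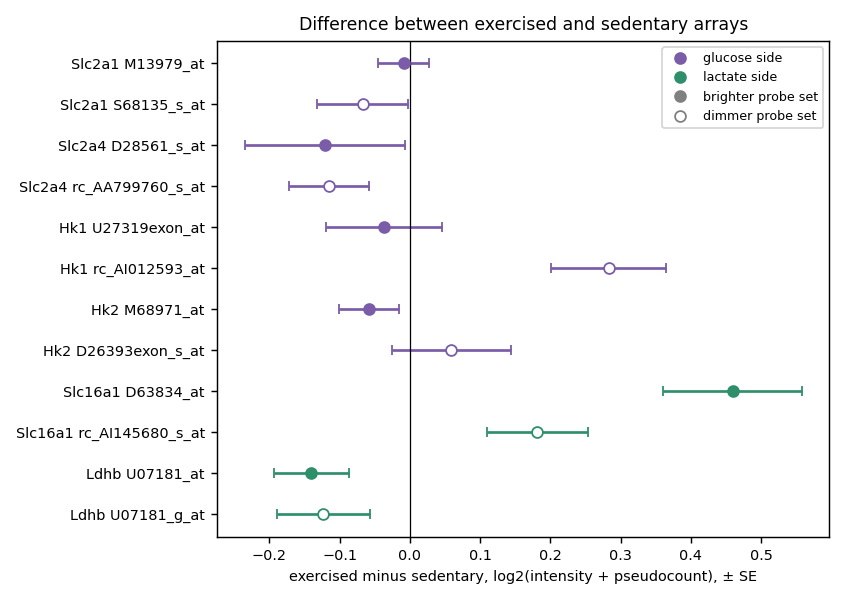
Difference of each probe set, exercised minus sedentary on the log2 scale ± SE (n = 6 per group), with glucose genes in purple and lactate genes in green, the brighter probe set filled and the dimmer open. Slc16a1 lies at 0.46 and 0.18 and Hk1 at -0.04 and 0.28, and the Slc2a1, Slc2a4 and Ldhb points all lie below 0.

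Set against each other by the brighter probe set of each gene, the glucose genes Slc2a1, Slc2a4, Hk1 and Hk2 ranged from -0.12 to -0.01 with a median difference of -0.05. On their dimmer probe sets they ranged from -0.11 for Slc2a4 to 0.28 for Hk1, with Hk2 also above 0. The lactate genes gave 0.46 for Slc16a1 and -0.14 for Ldhb, so their median of 0.16 stands midway between opposite values and describes neither gene. Over all 4 of their probe sets it was 0.03. The mean of the centred log2 values of the 4 glucose genes lay between -0.09 and 0.03 on exercised arrays and between -0.04 and 0.12 on sedentary arrays. That of Slc16a1 and Ldhb lay between -0.03 and 0.19 on exercised arrays and between -0.21 and 0.02 on sedentary arrays. For the mean of the lactate genes 4 of 6 exercised arrays were above every sedentary array, although on Ldhb alone 4 of 6 were below every sedentary array. For the glucose genes 2 of 6 were below every sedentary array.

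**Figure D3:**
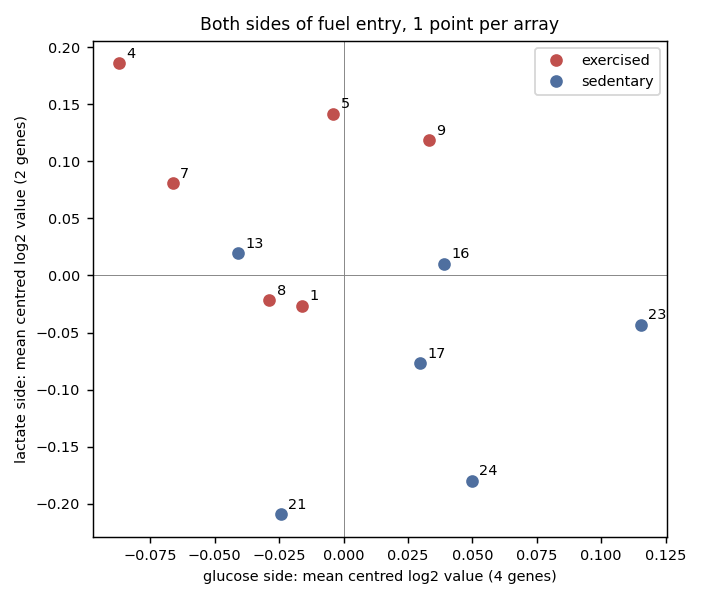
Mean centred log2 value of the 4 glucose genes (horizontal) against that of Slc16a1 and Ldhb (vertical), 1 numbered point per array, brighter probe set of each gene. Exercised 4, 5, 7 and 9 have the highest vertical values, from 0.08 to 0.19, and exercised 1 and 8, at -0.03 and -0.02, lie among the sedentary arrays.

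How well the probe sets of a gene followed each other within groups does not depend on the difference between groups, and was tested on deviations from the group means over the 12 arrays. The probe sets of Ldhb went together most closely (Pearson r = 0.58, Spearman rho = 0.54, permutation p = 0.0703 and 0.0917, within-group, two-sided), and r was 0.34 without exercised 7 and 9, the arrays farthest from the median. Both were made from the same accession, unlike the probe sets of the other genes, so their r is not directly comparable with the others. Those of Slc2a4 gave r = 0.41 and rho = 0.29 (permutation p = 0.192 and 0.340), but -0.11 within exercised and 0.90 within sedentary arrays, and r was 0.61 without exercised 8 and 9. Those of Slc16a1 gave r = 0.16 and rho = 0.098 (permutation p = 0.628 and 0.767). The probe sets of Hk2 ran against each other, with r = -0.71 and rho = -0.61 (permutation p = 0.0195 and 0.0558), and r was -0.64 without sedentary 17 and 21. Those of Hk1 gave r = -0.14 and rho = -0.084, and those of Slc2a1 0.28 and 0.22. No relation in the family of 33, with 6 within genes, 15 between genes and 12 with cell type markers, held after Benjamini-Hochberg adjustment, the lowest adjusted permutation p being 0.492 for r and 0.565 for rho. Among the 15 pairs of genes, on brighter probe sets, r was largest in size for Slc2a1 with Ldhb and with Hk1. Slc2a1 and Ldhb gave r = -0.52 and rho = -0.54 (permutation p = 0.104 and 0.0900). Slc2a1 and Hk1 gave r = -0.52 and rho = -0.38 (permutation p = 0.104 and 0.243), and r was -0.10 without exercised 5 and sedentary 23. Slc2a4 and Slc16a1 gave r = -0.48 and rho = -0.49 (permutation p = 0.143 and 0.147). Their r was -0.62 within exercised and -0.27 within sedentary arrays, and -0.37 without exercised 8 and 9.

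**Figure D4:**
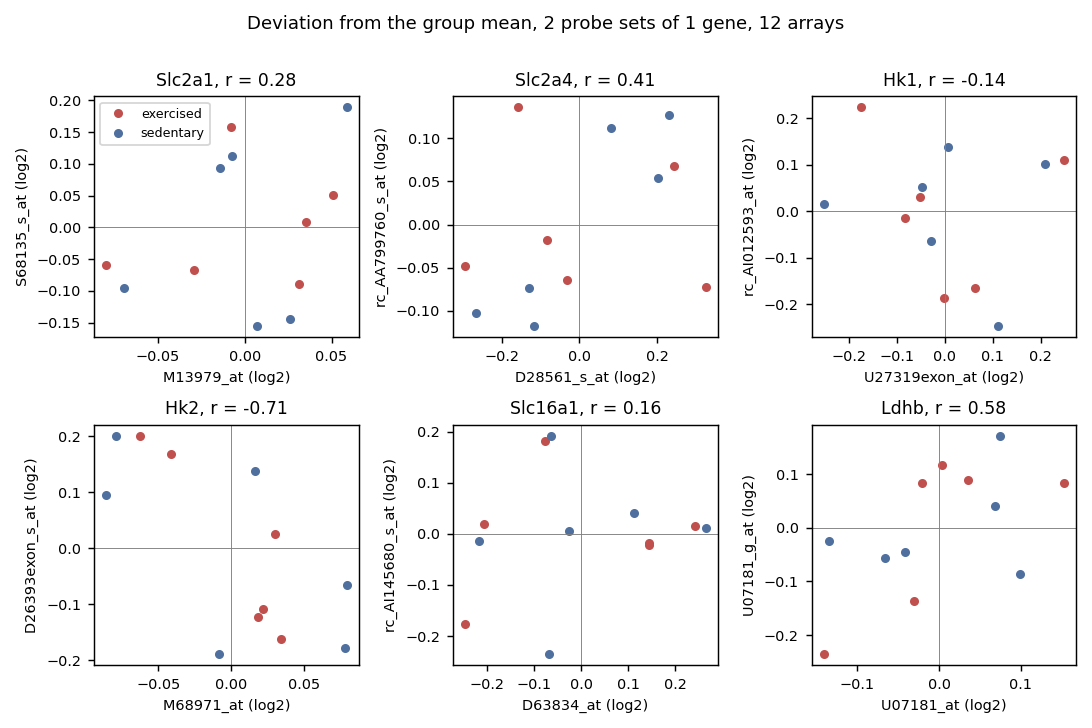
Deviation from the group mean (log2) on the brighter probe set (horizontal) and the dimmer probe set (vertical) of each gene, 1 point per array, exercised in red and sedentary in blue. The points of Hk2 slope downward (r = -0.71) and those of Ldhb upward (r = 0.58), and those of Hk1 and Slc16a1 show little slope (r = -0.14 and 0.16).

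The genes most like each member in these deviations are given by Pearson r over the 12 arrays, as a description of the highest values among the tested probe sets. For Slc16a1 they were Arpc1b, a subunit of the actin nucleating complex (0.84), Anxa2, a membrane-binding annexin (0.84), and Serpinh1, the collagen chaperone (0.82). For Slc2a4 they were Ncl (0.91), Mdm2 (0.91) and Aplp2 (0.90). For Ldhb they were Shc2 (0.86), Stard3 (0.83) and F9 (0.82). For Slc2a1 they were Msn (0.82), Dync1li2 (0.81) and Ccnd1 (0.81). For Hk1 on U27319exon_at they were Olr1523 (0.96), Ap3m2 (0.89) and Foxo1 (0.89), and for Hk2 on M68971_at Pip4k2c (0.96), Hyou1 (0.95) and Lamp1 (0.93).

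Some markers of other cell types lay higher or lower by sign on exercised arrays, and bulk tissue cannot tell fewer cells of a type from less RNA per cell. All 6 tested fibroblast markers were higher by sign on their brighter probe set (median 0.24 on the log2 scale), while the other probe set of Pdgfra gave -0.07, and their summed intensity lay between 30226 and 49394 on exercised and between 25846 and 33532 on sedentary arrays. None of the 6 passed an adjusted p of 0.05 in limma, and 2 were past an unadjusted p of 0.05. Marker means were compared only with the brighter probe set of each member. The mean deviation of the fibroblast markers and that of Slc16a1 on D63834_at had r = 0.57 and rho = 0.46 (permutation p = 0.0758 and 0.159). The r was 0.79 within exercised and 0.15 within sedentary arrays, and 0.43 without exercised 4 and sedentary 24. With Slc2a4 on D28561_s_at the same markers had r = -0.61 and rho = -0.48 (permutation p = 0.0536 and 0.147), with -0.62 within exercised and -0.59 within sedentary arrays, and r was -0.39 without those 2 arrays. Of 7 erythroid markers 3 were tested and all 3 were lower by sign, with sums between 13476 and 38361 on exercised and between 37211 and 42376 on sedentary arrays. Rat red cells carry MCT1. The haemoglobin gene Hbb had its lowest intensities on exercised 4 and 5, at 15784 and 8786. On D63834_at these arrays had Slc16a1 values of 7892 and 7351, the highest of any array. On rc_AI145680_s_at they had 4494 and 4380, inside the exercised range of 3892 to 5087. A part of red cells in the Slc16a1 values was not tested. Exercised 7 had a close Slc16a1 value of 7345 on D63834_at, with an Hbb intensity of 31749. The erythroid mean and Slc16a1 on D63834_at had r = -0.50 and rho = -0.44 (permutation p = 0.174 and 0.208), with -0.74 within exercised and 0.28 within sedentary arrays, and r was -0.24 without exercised 4 and 5. With exercised 4 and 5 left out of the fit, a choice made after seeing the data, Slc16a1 gave 0.36 on D63834_at and 0.18 on rc_AI145680_s_at. Slc2a4 gave -0.04 on D28561_s_at. Since exercised 4 and 5 had the highest Slc16a1 values on D63834_at, leaving them out lowers that difference whatever their Hbb intensity. Nothing about red cells is read from it. The 4 tested endothelial markers summed to between 4355 and 4771 on exercised and between 4478 and 5794 on sedentary arrays. The sum of 5794 was that of sedentary 17, and the next highest sedentary sum was 4904. The 3 tested smooth muscle markers, of 4 on the array, were higher by sign on their brighter probe set, while another Acta2 probe set gave -0.05. Of 5 macrophage and leukocyte markers Lyz2 passed the test, higher (limma adjusted p = 0.0404). The other 4 were lower by sign on their brightest probe set, with Csf1r past an unadjusted p of 0.05 in limma. Other probe sets gave 0.02 to 0.08 for Cd74, 0.09 for Cd14 and -0.01 for Ptprc. On the brightest probe set of each, none of 8 cardiomyocyte, 3 atrial, 5 skeletal muscle and 4 adipocyte markers passed in limma. Only Acta1, which was higher, was past 0.05 without adjustment. The atrial marker Nppa gave 0.29 ± 0.34 (SE) there, but 0.67 to 0.88 on its 3 other probe sets. Myl7 gave -0.36, and -0.61 on its other probe set. Atp2a2 gave -0.10, and -0.02 to 0.18 on its others. Hence these markers are not shown to be unchanged. Acta1 and Ckm averaged 12572 and 36349 in exercised samples, and the other skeletal muscle markers Myh1, Myh2 and Tnnt3 1955, 888 and 1035. Which cells gave the Acta1 signal was not tested. Sedentary 16 stood apart on the atrial markers, with a sum of 36926 against at most 13449 on the other sedentary arrays and between 9390 and 26071 on exercised arrays, and its Myl7 intensity was 8652 against at most 1923 on any other array. Without sedentary 16 Slc16a1 gave 0.48 on D63834_at and Ldhb -0.13 on U07181_at, and without sedentary 17 they gave 0.45 and -0.13. No measured marker was listed at 0. The part of other cell types in the member values was not tested.

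Around the members, 77 other genes of glucose and lactate handling were tested from 7 lists. None passed an adjusted p of 0.05 (limma, adjusted over all 6555 probe sets, where 0.32% passed). At an unadjusted p under 0.05 there were 4 higher and 7 lower, beside 16.2% of all tested probe sets, and by sign 40 were higher and 37 lower. Their median difference was 0.00. Differences on the brighter probe set of each gene follow, with limma adjusted p.

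Of 9 other carriers, 4 were higher and 5 lower by sign, around a median of -0.01. Bsg, the ancillary protein that brings MCT1 to the membrane, averaged 11591 ± 593 in exercised and 11594 ± 942 in sedentary samples, a difference of 0.00 ± 0.058 (limma adjusted p = 0.990). Slc16a3, the carrier MCT4 of glycolytic muscle, averaged 911 ± 47.0 in exercised and 1033 ± 131 in sedentary samples, a difference of -0.13 ± 0.056 (0.275). Emb, another ancillary protein of monocarboxylate carriers, gave -0.07 (0.326) and the glucose carrier Slc2a3 -0.08 (0.520), which was -0.02 without sedentary 17. The measured monocarboxylate carriers other than Slc16a1 thus ran from -0.13 for Slc16a3 to 0.05 for Slc16a6 and Slc16a8 (-0.01 and 0.00 without sedentary 17), and their distance from Slc16a1 was not tested. Gckr gave 0.10 (0.132) and the D-lactate dehydrogenase Ldhd 0.00 (0.978), while Hk3 had no tested probe set.

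Among 15 genes of glycolysis below hexokinase, 7 were higher and 8 lower by sign. The 3 with the smallest p were Pfkfb3, which makes the activator of phosphofructokinase (-0.16, limma adjusted p = 0.253), Pfkl, the liver phosphofructokinase (0.08, 0.284), and Pgam2, the muscle phosphoglycerate mutase (-0.13, 0.305). Among 11 genes of pyruvate entry, Pdp1, the phosphatase that activates pyruvate dehydrogenase, had the largest difference of the 77 genes. It averaged 2014 ± 428 in exercised and 1307 ± 291 in sedentary samples, a log2 difference of 0.51 ± 0.13 (limma adjusted p = 0.0920), and its other probe set gave 0.40. Pdha1, a subunit of that dehydrogenase, gave -0.23 (0.243) and, on a second probe set, 0.06, pyruvate carboxylase Pc 0.09 (0.374) and the inhibitory kinase Pdk4 0.24 (0.447).

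Of 10 genes of glycogen and hexose side paths, 5 were higher and 5 lower by sign, and the aldose reductase Akr1b1 (-0.12, limma adjusted p = 0.309), glycogenin Gyg1 (0.15, 0.374) and the glycogen phosphorylase Pygb (-0.12, 0.447) had the smallest p. Of 19 genes of GLUT4 vesicle traffic and of insulin and AMPK signalling, the kinase Akt1 averaged 3244 ± 211 in exercised and 3856 ± 380 in sedentary samples (-0.22 ± 0.066, limma adjusted p = 0.124), and its second probe set gave -0.09. The AMPK subunit Prkab1 gave 0.24 (0.164) and the vesicle GTPase Rab4a -0.09 (0.333). Of 11 regulators, the thyroid hormone receptor Thra gave -0.21 (0.151) with -0.01 and 0.10 on its other probe sets, Thrb 0.10 (0.331), and Myc -0.11 (0.276). Txnip, which restrains glucose uptake, gave 0.27 (0.354) and, on its dimmer probe set, 0.08.

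**Figure D5:**
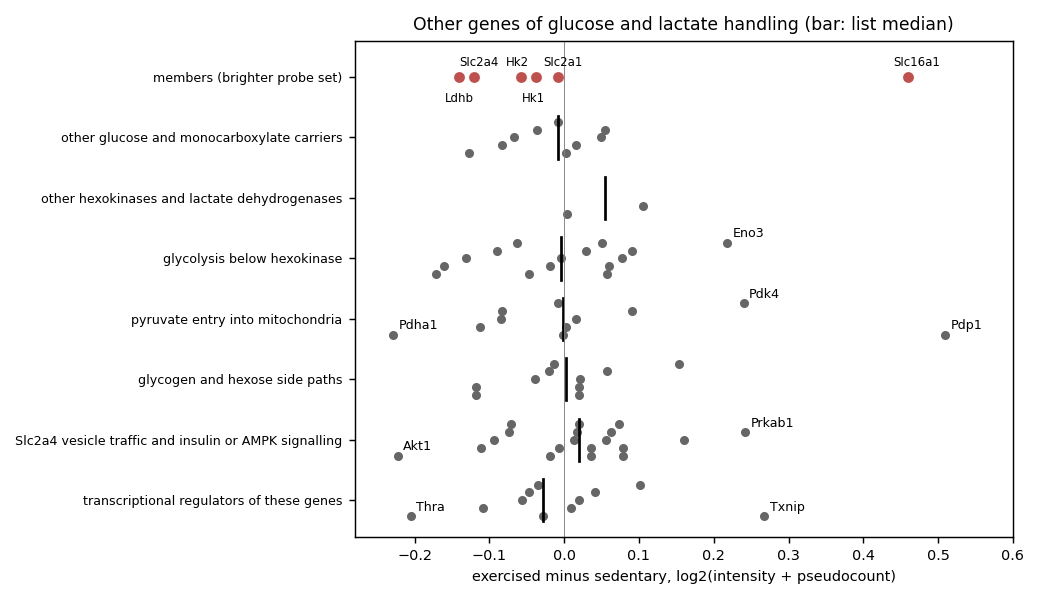
Difference of 77 other genes of glucose and lactate handling (grey, brighter probe set, exercised minus sedentary, log2) by list, with a bar at each list's median, and the 6 members in red above them. List medians lie between -0.03 and 0.05, and names are printed for genes beyond 0.2 in either direction, of which Eno3 was named for its size alone.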

How the data were processed

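Left ventricular RNA of 6 exercised and 6 sedentary rat samples was measured on 1 array each. The deposited table gives each probe set's intensity, linear and already on a scale common to the arrays. How the authors corrected background, scaled arrays or called detection, and with which software, was not stated in the labels or the table. Samples were grouped by title. Values were taken as log2(intensity + 363), the pseudocount being the 20th percentile of all values, which understates differences of dim probe sets. Probe sets with a mean above 434, the 25th percentile of the means, were kept (6555 of 8740), and group differences were fitted with limma 3.58.1 in R 4.3.3 (lmFit, eBayes with trend, two-sided, Benjamini-Hochberg adjustment over the 6555, threshold 0.05). Of the probe sets 7006 name 1 gene, 308 several and 1426 none, in an older platform annotation, and those with several gave no gene name. Promoters come from RefSeq, build GRCr8, and were found for 5 of the 7 genes.

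The members and gene lists were chosen with earlier results of these data known. Named were all member probe sets, the 3 genes of smallest p per list, genes past the threshold, Bsg, Slc16a3, Slc2a3, Hk3, Txnip and Pdk4 where measured, and the 3 genes most like each member. Within-group correlations used 100000 permutations within groups (numpy 2.4.6). On simulated data of 6555 probe sets with 200 changed, in 10 runs, 64.4% of log2 changes of 0.25, 95.2% of 0.5 and 99.8% of 1 were recovered and 5.02% of calls were false. These are shares over simulated probe sets, not rates for the members. Slc16a1 on D63834_at had an SD around the group means of 0.19, where the median of all tested was 0.099. In the data Pdp1, at 0.51, did not pass. Alternatives were other pseudocounts, a floor, other filters, quantile and median scaling, other variance models, array weights and leaving out each array.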

Additional observations from a re-analysis of the deposited data

How the results depend on the processing

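Of the member probe sets, 1 passed an adjusted p of 0.05 with the filter at the 50th percentile of the means (of 11 tested) and, of 12, with eBayes without trend and with array weights, and 0 or 1 when 1 array was left out, passing without exercised 1 or sedentary 13. It was Slc16a1 on D63834_at each time, a gene chosen with this contrast known, so nothing is read from its passing. Over all probe sets 21 passed as reported, 32 without a filter, 50 with the stricter filter, 42 without trend, 160 with array weights and 4 with exercised 4 and 5 both left out, which was decided once the data had been seen. Leaving out 1 array gave 3 (sedentary 23) to 37 (sedentary 13). Of the other genes of the pathway 2 passed with array weights, Gckr at 0.11 and Pdha1 at -0.30, and 0 in every other setting run. The median of the lactate genes was 0.029 over all their probe sets in place of 0.16, and 0.13 to 0.18 with 1 array left out. That of the glucose genes was -0.07 to -0.03 with 1 array left out.

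With 1 array left out, Slc16a1 gave 0.41 to 0.51 on D63834_at and 0.13 to 0.22 on rc_AI145680_s_at, Hk1 0.23 to 0.32 on rc_AI012593_at, Ldhb -0.17 to -0.11 on U07181_at and Slc2a4 -0.19 (without exercised 9) to -0.06 (without exercised 4) on D28561_s_at. Hk2 on D26393exon_s_at went down to 0.019 without exercised 8 and up to 0.099 without sedentary 17, Slc2a1 on S68135_s_at to -0.03 without sedentary 24 and Ldhb on U07181_g_at to -0.08 without exercised 7. Array weights gave 0.11 for Slc16a1 on rc_AI145680_s_at, -0.20 for Slc2a4 on D28561_s_at and -0.13 for Slc2a1 on S68135_s_at. Among named genes that did not pass, Pdk4 gave 0.096 without exercised 9, and without sedentary 17 Pfkfb3 gave -0.10, Txnip 0.16, Rab4a -0.06 and Thrb 0.06. Pygb gave -0.08 without exercised 1. The signs of Slc2a1 on M13979_at and Hk1 on U27319exon_at, both near 0, turned in some settings, and no other member difference changed sign in any. No paired analysis was possible because the groups share no replicate number. The median difference over all tested probe sets was 0.0081 under median scaling and 0.00074 under quantile normalization. No intensity was tested against background, since the table has no detection calls.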
